A study of Mus musculus with 6 samples.

Results

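The 8 genes described here encode S100 calcium-binding proteins and were chosen by name: S100b, S100a1, S100a4, S100a6, S100a10, S100a11, S100a13 and S100a16. They are 8 of the 47643 genes in the deposited tables, and all 8 passed the filter on low counts. RNA was sequenced from cells labelled ependymal, from the adult mouse ventricular-subventricular zone (the stem cell niche along the lateral ventricles), sorted for GFP 2 days after the mice had received tamoxifen. In the Ccn1 conditional knockout (labelled CKO, 3 samples) tamoxifen induced recombination that deleted Ccn1, which encodes a secreted matrix protein, and switched on GFP in ependymal cells. The controls (labelled CTR, 3 samples) were sorted by the same GFP gate, set by hand against wild-type cells. The sources used here do not give the Cre driver, the control alleles, the age in weeks or whether a sample was 1 animal or a pool, so p-values measure only the spread between these 6 samples, which may be technical. The labels call the material both cytoplasmic RNA and total RNA.

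S100 proteins are small proteins with EF-hand loops, found in vertebrates, that mostly act as dimers. When calcium binds, a typical S100 dimer opens a hydrophobic patch and takes hold of a target such as an annexin, a cytoskeletal protein or an enzyme, and some members are also secreted and act on cell-surface receptors such as RAGE. S100b is a long-used marker of astrocytes and of the ciliated ependymal cells that line the brain ventricles.

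Total estimated counts ranged from 13401499 to 13857754 in the CKO libraries and from 13670945 to 15689579 in the CTR libraries. Ccn1, the deleted gene, stood at 18.7, 11.6 and 23.7 TPM (a transcript level scaled for length and library) in the CKO and at 63.6, 98.7 and 93.5 TPM in the CTR. The edgeR quasi-likelihood log2 fold change was -2.22 ± 0.38 (SE), and its adjusted p was 0.99999 (unadjusted p = 0.000415), so that this test over all genes did not call the deleted gene, while DESeq2 did (adjusted p = 4.15e-06). The 13 ependymal markers were all detected, with sums of 24636 to 25630 TPM in the CKO and 24068 to 29137 TPM in the CTR. CTR 1 had the fewest genes with a count, 12428, where the other libraries had 12989 to 14496. Summed markers of astrocytes and neural stem cells ran from 1988 to 2398 TPM in the CKO and from 2019 to 3251 TPM in the CTR, and those of the choroid plexus from 316 to 909 TPM in the CKO and from 540 to 741 TPM in the CTR. Of the 7 choroid plexus markers 5 were detected, and Aqp1 and Kcne2 were at 0 in all libraries. Mural and fibroblast markers summed to 365 to 373 TPM in the CKO and 218 to 402 TPM in the CTR. Of these 9 markers 3 were detected, with Acta2 the highest, and Kcnj8, Col3a1, Dcn and Lum were at 0 in all. Oligodendrocyte markers summed to 212 to 239 and 94.9 to 328 TPM, and microglia markers to 110 to 154 and 120 to 147 TPM. Of the 11 oligodendrocyte markers 6 were detected, and Mog and Sox10 were at 0 in all libraries. Neuron and neuroblast markers summed to at most 25.7 TPM, and granulocyte and lymphocyte markers to at most 0.126 TPM in any library. The 7 endothelial markers summed to at most 3.83 TPM, with Pecam1, Cldn5 and Cdh5 at 0 in all. The CKO and CTR ranges overlapped for all 9 marker lists, and the part of other sorted cells in the S100 levels was not tested. In bulk RNA, fewer cells of a type and less RNA per cell cannot be told apart.

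Of the 8 genes, 7 lie on mouse chromosome 3 and S100b lies on chromosome 10. The sequences below are promoter windows of GRCm38.p6 from RefSeq, from 250 bases before to 50 bases after the annotated start, on the gene's own strand and 5′ to 3′. Windows were found for 7 of the 8 genes, and none for S100a10. The first window is shown because S100a1 and S100a13 are divergent neighbours: it is the S100a13 window, chr3:90514185-90514484 on the plus strand, and the capitals run from the RefSeq start of S100a1, which is read leftward, to that of S100a13, which is read rightward, 105 bases apart.
S100a13 with S100a1: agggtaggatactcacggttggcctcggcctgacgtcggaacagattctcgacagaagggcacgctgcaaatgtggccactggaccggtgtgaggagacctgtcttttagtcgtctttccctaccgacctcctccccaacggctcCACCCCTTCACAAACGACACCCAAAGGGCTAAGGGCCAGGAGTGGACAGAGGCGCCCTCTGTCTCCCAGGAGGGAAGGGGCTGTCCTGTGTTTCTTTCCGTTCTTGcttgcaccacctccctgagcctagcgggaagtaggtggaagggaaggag
The next 2 are shown because S100a6 and S100a11 had the only CKO and CTR values that did not overlap. They lie at chr3:90612644-90612943 and chr3:93520246-93520545, both on the plus strand, and capitals mark motif matches.
S100a6: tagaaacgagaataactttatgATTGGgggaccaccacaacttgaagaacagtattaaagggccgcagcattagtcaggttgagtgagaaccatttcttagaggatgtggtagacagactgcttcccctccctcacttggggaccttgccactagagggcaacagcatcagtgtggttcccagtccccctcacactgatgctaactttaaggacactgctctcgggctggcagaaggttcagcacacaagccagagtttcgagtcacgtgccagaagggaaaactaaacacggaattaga
S100a11: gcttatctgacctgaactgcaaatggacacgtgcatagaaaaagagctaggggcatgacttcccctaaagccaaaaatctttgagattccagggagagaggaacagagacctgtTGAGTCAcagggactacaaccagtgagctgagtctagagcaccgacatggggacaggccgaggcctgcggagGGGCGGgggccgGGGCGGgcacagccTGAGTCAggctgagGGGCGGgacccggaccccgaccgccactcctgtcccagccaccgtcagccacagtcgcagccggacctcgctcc
The last 2 are S100a4, the member that varied most between libraries, at chr3:90603520-90603819 on the plus strand, and the marker gene S100b at chr10:76253586-76253885 on the plus strand, with motif matches in capitals.
S100a4: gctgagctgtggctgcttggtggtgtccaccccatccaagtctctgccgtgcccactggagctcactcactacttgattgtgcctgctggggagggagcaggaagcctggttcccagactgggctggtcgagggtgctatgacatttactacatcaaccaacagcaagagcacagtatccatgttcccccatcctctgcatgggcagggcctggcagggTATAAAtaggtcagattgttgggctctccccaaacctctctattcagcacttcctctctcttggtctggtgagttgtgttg
S100b: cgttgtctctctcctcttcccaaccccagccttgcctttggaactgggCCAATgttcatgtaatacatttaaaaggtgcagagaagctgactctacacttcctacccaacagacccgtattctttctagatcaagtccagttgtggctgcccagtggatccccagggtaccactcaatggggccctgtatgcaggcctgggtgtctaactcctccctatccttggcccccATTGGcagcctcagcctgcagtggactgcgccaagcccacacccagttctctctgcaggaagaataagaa

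Motifs were searched as letters on both strands. S100a4 was the only one of the 7 genes with TATAAA, the core of the TATA box, 31 bases before its start, and 13.6% of all 32851 windows hold those letters. S100a11 held GGGCGG, the GC box, at 64, 52 and 24 bases before its start (35.7% of all windows hold at least 1), and TGANTCA, the AP-1 site, at 136 and 38 bases before it (7.81% of all windows). CCAAT was found in S100b at 202 and 20 bases before the start and in S100a6 at 228 bases before it (37.4% of all windows). The windows of S100a1 and S100a13 held none of the 4 motifs. They had 11 and 14 CpG dinucleotides and that of S100a11 had 15, against a median of 7 over all windows, while S100a4 had 2 and S100b had 3. Of the 2 windows of S100a16, the second held GGGCGG 30 bases and the AP-1 site 192 bases before its start, the first held none of the 4 motifs, and they had 4 and 2 CpG dinucleotides. These matches describe letters in the windows and say nothing of which factors bind there.

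All 8 genes were expressed in every library, and S100a1 led. S100a1, best known in mouse heart as a regulator of calcium release and uptake, stood at 844, 820 and 1042 TPM in the CKO and at 1401, 743 and 896 TPM in the CTR, and its mean over the 6 libraries ranked 127 among all genes by TPM. It was the highest of the 8 in all 6 libraries, and its lowest value lay above the highest of any other member, with a level 2.06 ± 0.34 times that of S100a6, the next gene (SD of the ratio, n = 6). S100a6, also called calcyclin, averaged 468 ± 90.1 TPM, S100a11, a partner of annexin A1, 429 ± 75.0 TPM, and S100a16, a widely expressed member, 390 ± 20.3 TPM (SD, n = 6). These 3 overlapped: S100a6 was above S100a11 in 4 of 6 libraries, and S100a11 above S100a16 in 5 of 6. All 3 lay above S100a10, the annexin A2 partner also called p11, in every library (218 ± 78.6 TPM).

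S100b, the classical marker of the family in this tissue, came at the sixth place. It stood at 186, 140 and 127 TPM in the CKO and at 95.1, 223 and 145 TPM in the CTR, and it overlapped S100a10 above it, which was higher in 4 of 6 libraries. Below it came S100a4, which binds nonmuscle myosin, at 66.9 ± 32.9 TPM, and S100a13, which takes part in the release of FGF1, at 40.2 ± 13.5 TPM (SD, n = 6). S100b was above S100a4, and S100a4 above S100a13, in 5 of 6 libraries each, with overlapping ranges. The place of S100b depends on scaling for length: it gave 4.98 times as many counts per TPM as S100a11, and its longest annotated transcript is 1484 bases against 511. In CPM, counts scaled to the library without regard to length, S100b averaged 166 and S100a11 94.7.

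**Figure D1:**
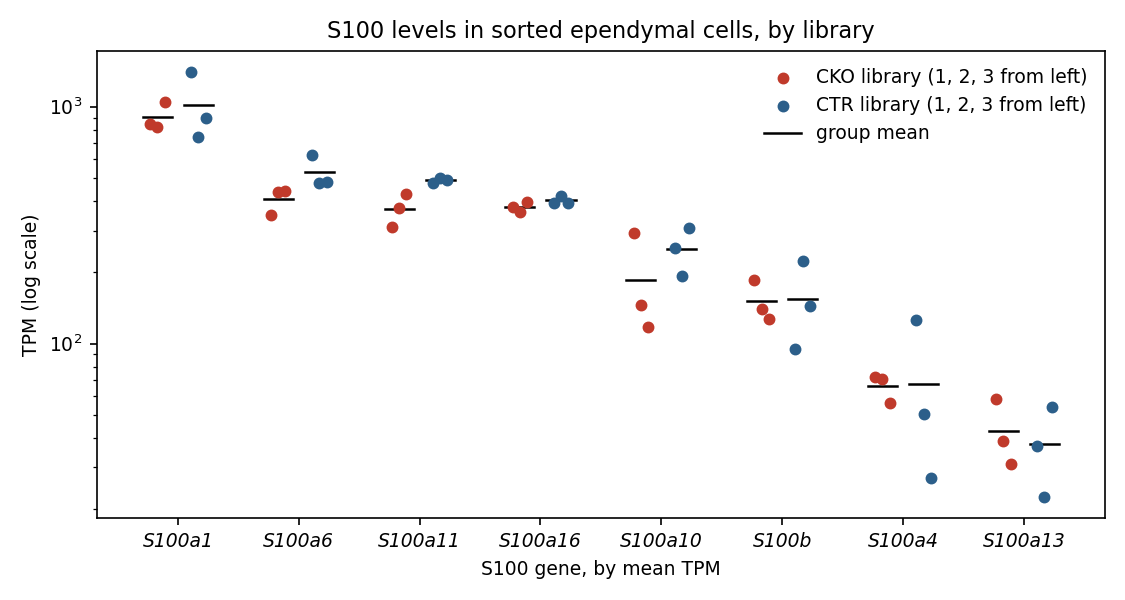
Level of each S100 gene in TPM on a log axis, with each point a library (3 CKO in red on the left, 3 CTR in blue on the right) and a bar at the group mean. S100a1 lay between 743 and 1401 TPM, above every other member, and S100a4 and S100a13 were the lowest on average.

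The levels differed between neighbours along the chromosome 3 cluster (GENCODE M21 annotation of GRCm38). S100a1 (90511034 to 90514392, minus strand) and S100a13 (90514435 to 90524581, plus strand) start 43 bases apart in that annotation. The ratio of the S100a1 level to the S100a13 level was 14.5, 21.1 and 33.5 in the CKO and 38.0, 32.9 and 16.7 in the CTR, with overlapping groups. S100a14, the next gene, had 0 counts in all 6 libraries, and S100a16 (90537254 to 90543151) followed at 390 TPM. S100a4 (90603771 to 90606045) and S100a6 (90612882 to 90624181) flank S100a5, which also had 0 counts, and S100a6 averaged 468 TPM and S100a4 66.9 TPM. S100a8 and S100a9, the calprotectin genes of neutrophils, had 0 counts, which over the 6 libraries together allows up to 0.0349 CPM (3 counts, counting error only). S100a11 (93520488 to 93526287) and S100a10 (93555080 to 93564643) lie apart from the rest, and of the 60 protein-coding genes between S100a9 and S100a11 only Tchh reached 1 TPM, at 3.09.

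Of the 9 other S100 genes in the tables, 6 had 0 counts in every library, and S100a7a had under 2 counts in all. S100a3 stood at 39.9, 36.4 and 10.3 TPM in the CKO and at 0, 9.72 and 19.9 TPM in the CTR, which overlap, and was the only one of the 9 to pass the filter (log2 difference 1.39 ± 2.10, SE, adjusted p = 0.99999 by edgeR). S100g, an intestinal calcium buffer also called calbindin-D9k, reached 10.6 TPM in CKO 3 and 4.36 TPM in CTR 2 and was at or near 0 in the rest. S100a3 and S100a4 are both overlapped by the gene model Gm42674, to which 0 counts were assigned, so the division of reads in that stretch is uncertain.

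**Figure D2:**
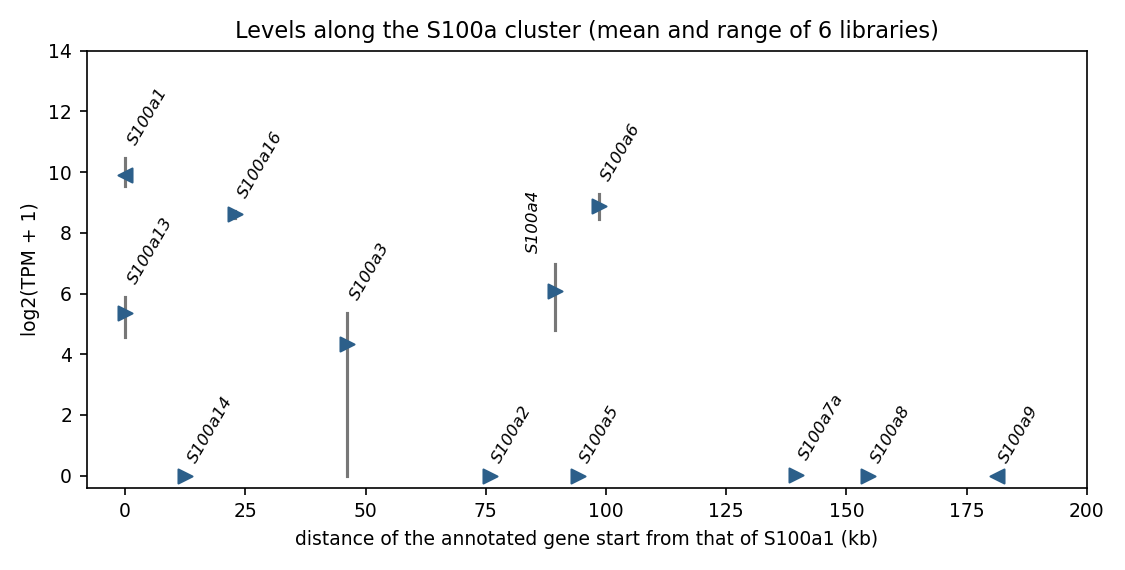
Mean level as log2(TPM + 1) of the S100a genes on chromosome 3, placed by the distance in kb of the annotated start from that of S100a1, with lines from the lowest to the highest of 6 libraries and arrowheads for the direction of transcription. S100a1 and S100a13 start next to each other at different heights, and S100a14, S100a2, S100a5, S100a8 and S100a9 lie at 0. S100a11 and S100a10 are beyond the axis.

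S100a16 was the steadiest member and S100a4 the least steady. S100a16, a member with weak calcium binding, stood at 378, 360 and 397 TPM in the CKO and at 392, 421 and 392 TPM in the CTR. Its coefficient of variation (SD over mean) was 5.21% over 6 libraries, where the median of the 1451 tested genes at 100 to 1000 TPM was 20.6%, and 0.689% of them had a lower one. S100a10 was at the other end of that range of levels, with 36.0%, above 91.8% of those genes, and S100b had 29.7%, above 80.8%. S100a11 and S100a6 had 17.5% and 19.3%, near the median, and S100a1 24.9%. Among the 4454 genes at 10 to 100 TPM, with a median of 45.5%, S100a4 had 49.2% and S100a13 33.5%. S100a4 ranged 4.63-fold, and both ends were in the CTR: it stood at 72.4, 70.7 and 55.9 TPM in the CKO and at 125, 50.5 and 27.0 TPM in the CTR. Counting error alone would be at most 10.8% for S100a4 and 1.67% for S100a16, at the lowest count of each.

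**Figure D3:**
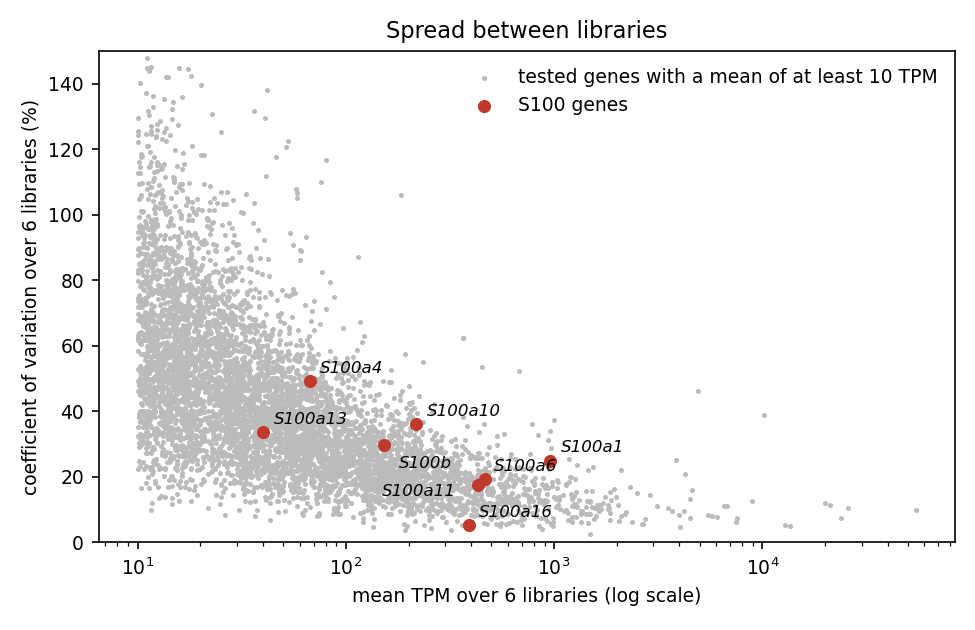
Coefficient of variation over 6 libraries in % against mean TPM on a log axis, with the 8 S100 genes in red and the 6019 tested genes with a mean of at least 10 TPM in grey (11 of them lie above the axis limit of 150%). S100a16 sits at the lower edge for its level, S100a10 and S100b in the upper part.

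The comparison of CKO with CTR asked whether loss of Ccn1 went with a change in these genes. The edgeR quasi-likelihood test called 0 of the 8 at an adjusted p of 0.05 (0.0% of all 11574 genes were called), and 0 of the 8 at an unadjusted p of 0.05, where 2.75% of all genes were. DESeq2 also called 0 of the 8, against 1.63% of the 12133 genes it gave an adjusted p. The log2 fold change was below 0 for 7 of 8, as it was for 49.7% of all genes, with a median of -0.15 against 0.0044 over all genes. With 1 library left out that median of the 8 ran from -0.36 (without CTR 2) to -0.094. The direction turned in at least 1 of 15 other settings for 4 of the 8, S100b, S100a1, S100a4 and S100a13. Summed over the 8 genes the level was 2490, 2385 and 2640 TPM in the CKO and 3401, 2629 and 2793 TPM in the CTR, which overlap, and S100a1 gave 35.9 ± 3.07% of it in the CKO and 33.8 ± 6.65% in the CTR (SD, n = 3 each).

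S100a6 and S100a11 were the 2 members whose groups did not overlap, and both were lower in every CKO library than in every CTR library. S100a6 stood at 349, 436 and 440 TPM in the CKO and at 624, 478 and 482 TPM in the CTR, a log2 difference of -0.39 ± 0.24 (SE) with a 95% interval from -0.95 to 0.16. The edgeR adjusted p was 0.99999 (unadjusted p = 0.138), and without CTR 1, the highest library, the difference was -0.17. S100a11 stood at 309, 374 and 430 TPM in the CKO and at 475, 499 and 490 TPM in the CTR, a log2 difference of -0.40 ± 0.27 (SE) with an interval from -1.03 to 0.22 (edgeR adjusted p = 0.99999, unadjusted p = 0.171). The 3 CTR values of S100a11 were the tighter group: the SD was 60.4 TPM in the CKO and 12.1 TPM in the CTR. The exact two-sided permutation p on TPM was 0.1 for each, the smallest that 3 against 3 allows. Of all tested genes, 4.5% had all 3 CKO values below all 3 CTR values in TPM and 4.62% in CPM, where the same 2 of the 8 S100 genes did. None of the 8 had all 3 CKO values above, as 5.01% of all genes did in TPM and 4.99% in CPM. The summed ependymal, astrocyte, choroid plexus and other markers overlapped between the groups, and their part in these differences was not tested.

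The other 6 overlapped between the groups. S100a10 stood at 294, 146 and 117 TPM in the CKO and at 252, 193 and 307 TPM in the CTR, a log2 difference of -0.44 ± 0.43 (SE). It ran from -0.96 without CKO 1, the highest CKO library, to -0.21 without CKO 3, the lowest. S100a1 had a log2 difference of -0.20 ± 0.30, which turned to 0.20 without CTR 1, where it was highest. S100b averaged 151 ± 30.7 TPM in the CKO and 154 ± 64.6 TPM in the CTR (SD, n = 3 each), a log2 difference of -0.0083 with an interval from -0.73 to 0.71. S100a16 had the narrowest interval, from -0.46 to 0.31 around -0.074, so that by this fit its level in the CKO lay between 0.728 and 1.24 times that of the CTR. S100a13 stood at 58.1, 38.9 and 31.1 TPM in the CKO and at 36.9, 22.6 and 53.8 TPM in the CTR, with an interval from -2.12 to 2.46. The interval of S100a4 ran from -2.75 to 2.55, and its difference of -0.099 became 0.84 without CTR 1. For these low genes a change of several-fold either way was not detectable.

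**Figure D4:**
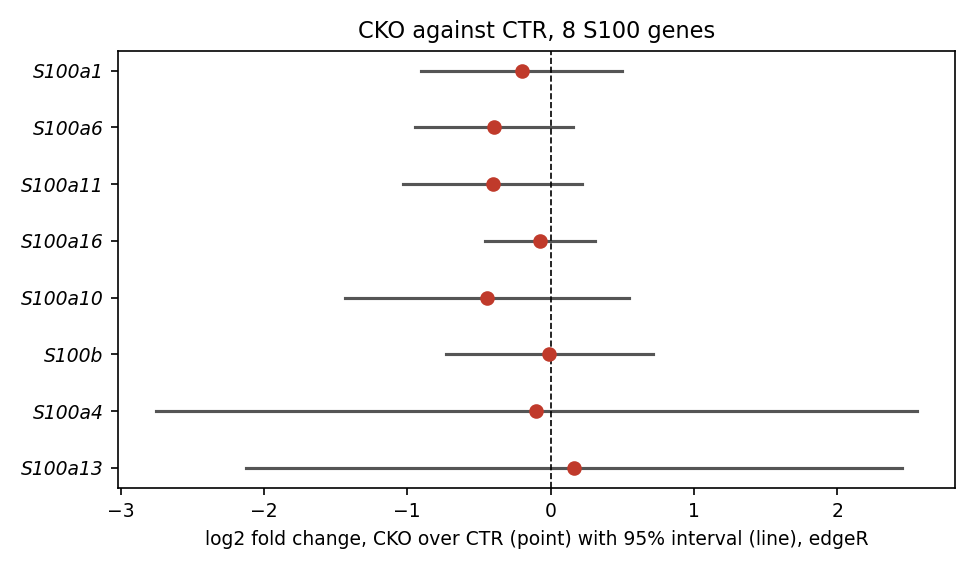
Log2 fold change of CKO over CTR by edgeR for the 8 S100 genes, in order of level, with 95% intervals as lines. All 8 intervals include 0, and those of S100a4 and S100a13, the 2 genes of lowest level, are the widest.

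**Figure D5:**
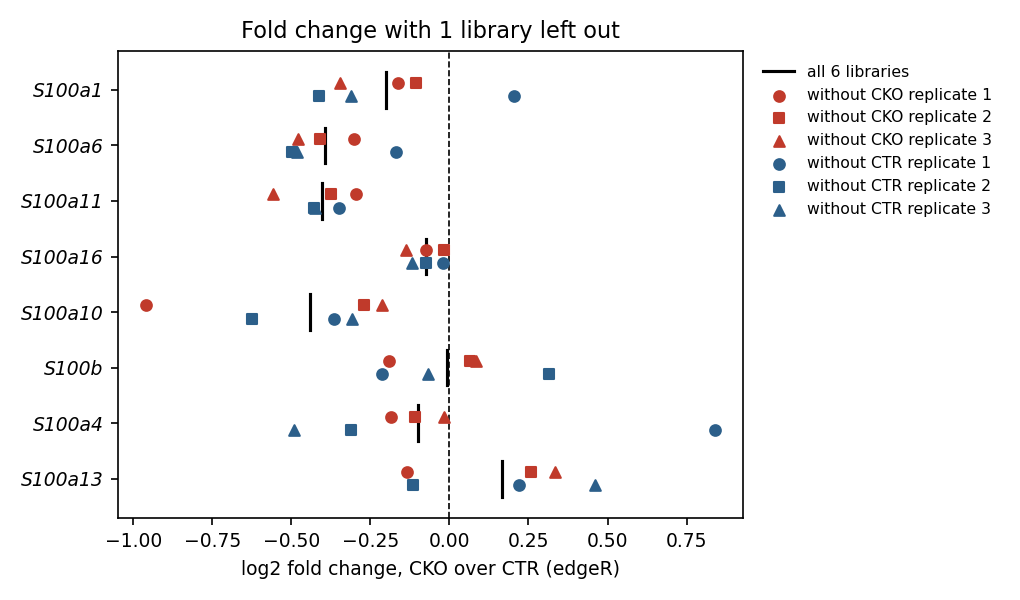
Log2 fold change of CKO over CTR by edgeR with all 6 libraries (black bar) and with 1 library left out (red, a CKO library; blue, a CTR library; circle, square and triangle for replicates 1, 2 and 3). S100a6, S100a11, S100a16 and S100a10 stayed below 0 in all 6, and S100a4 and S100a1 moved above 0 without CTR 1.

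The annexins hold the main intracellular partners of S100a10 and S100a11. Of 12 annexin genes 8 were tested, all with overlapping groups, 2 with a higher and 6 with a lower fitted level in the CKO, and 0 were called (median log2 difference -0.048, which was 0.019 with limma-voom and 0.16 without CTR 2, against 0.0044 over all genes). Of all 11574 genes tested, 5823 were higher and 5751 lower, and edgeR called 0, which is the background for this list and those below. Anxa2, which forms a tetramer with S100a10, stood at 1257, 1255 and 1098 TPM in the CKO and at 1145, 1236 and 1293 TPM in the CTR. It exceeded S100a10 by 4.28, 8.62 and 9.36 times in the CKO and by 4.54, 6.41 and 4.21 times in the CTR, so the partner was the more abundant transcript in every library. Anxa1, the partner of S100a11, was the less abundant of its pair, at 0.317 to 0.728 times S100a11 in the CKO and 0.342 to 0.558 times in the CTR. Anxa5, which binds exposed phosphatidylserine, was the highest annexin, at 2303 ± 55.6 TPM in the CKO and 2451 ± 183 TPM in the CTR (SD, n = 3 each). Anxa7 was low, at 11.5 ± 3.50 and 17.3 ± 16.1 TPM.

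Of the 10 genes of S100 receptors 5 were tested, 4 with a higher and 1 with a lower fitted level in the CKO, and 0 were called. Over all genes tested, 5823 of 11574 had a higher fitted level and 0 were called. The receptor median log2 difference was 0.32, and 0.053 to 0.52 with 1 library left out, against 0.0044 over all genes. Bsg, which encodes basigin, a receptor of S100A9 in human cells, stood at 859 ± 91.8 TPM in the CKO and 812 ± 166 TPM in the CTR. Ager, which encodes RAGE, stood at 47.6, 58.7 and 35.4 TPM in the CKO and at 0.0685, 68.6 and 0 TPM in the CTR. It was at or near 0 in CTR 1 and CTR 3, and the groups overlapped, with a 95% interval of the log2 difference from -3.62 to 5.83. That difference rested on single libraries and on the method: it was 0.52 without CTR 1 or without CTR 3, 6.32 with limma-voom (adjusted p = 0.906), and 10.13 without CTR 2, where both CTR libraries left are at or near 0 (edgeR adjusted p = 0.641). With CTR 1 and CTR 3 at or near 0, Ager needed its CKO libraries to pass the filter on low counts. The large values therefore give no support of their own. Fgfr1 averaged 19.2 ± 2.98 TPM in the CKO and 14.7 ± 8.47 TPM in the CTR, Alcam 4.69 ± 4.36 and 2.15 ± 1.91 TPM, and Tlr4 0.327 ± 0.476 and 1.78 ± 1.55 TPM (SD, n = 3 each).

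Of the 50 intracellular binding partners and targets 36 were tested, 20 with a higher and 16 with a lower fitted level in the CKO, and edgeR called 0 (median log2 difference 0.045). At an unadjusted p of 0.05 there were 4, Tpm2, Plat, Pgm1 and Myh10, all higher in the CKO, where 2.75% of all genes were. In TPM 7 of the 36 had all 3 CKO values above all 3 CTR values, as 5.01% of all genes did, and 1 of the 36, the nonmuscle myosin gene Myh14, had all 3 below, as 4.5% of all genes did. Most of these were low: Src, Myh9, Myh10, Tpm2 and Iqgap1 among the 7 averaged 1.99 to 6.98 TPM over the 6 libraries, and Myh14 averaged 1.69 TPM. In CKO 3 Myh14 was near the floor, at 0.0129 TPM. Plat, which encodes tissue plasminogen activator, an enzyme whose activity S100a10 promotes at the cell surface, stood at 170, 215 and 253 TPM in the CKO and at 89.1, 150 and 153 TPM in the CTR (log2 difference 0.73 ± 0.23, SE, edgeR unadjusted p = 0.0155, adjusted p = 0.99999). Tpm2, a tropomyosin gene, stood at 22.9, 4.42 and 3.82 TPM in the CKO and at 0.0750, 0 and 0 TPM in the CTR, and Myh10, a nonmuscle myosin heavy chain gene, at 5.51, 5.57 and 3.42 TPM in the CKO and 0.649, 1.64 and 1.19 TPM in the CTR. DESeq2 called these 2 of the list (adjusted p = 0.000425 and 0.00849), against 1.63% of all genes. Tpm2, and Src at 0, 0 and 0.177 TPM in the CTR, passed the edgeR filter on low counts through their CKO libraries alone. Their lack of overlap and the small p-values of Tpm2 therefore give no support of their own. Cacybp, the calcyclin-binding partner of S100a6, stood at 433 ± 74.1 TPM in the CKO and 401 ± 43.8 TPM in the CTR. The aldolase genes Aldoa and Aldoc stood at 1286 ± 124 and 849 ± 114 TPM in the CKO and at 1127 ± 215 and 1060 ± 465 TPM in the CTR.

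Some other EF-hand genes stood at higher levels in TPM than any S100 gene. Of 54 listed, 36 were tested, 14 with a higher and 22 with a lower fitted level in the CKO, and 0 were called (median log2 difference -0.055, or 0.0067 without CTR 1). Capsl, a calcyphosine-like gene, stood at 2141, 1960 and 1825 TPM in the CKO and at 1737, 1557 and 1699 TPM in the CTR. Each CKO value was above each CTR value in TPM, though they overlapped in CPM (log2 difference 0.24 ± 0.14, SE, edgeR adjusted p = 0.99999). Capsl was the only 1 of the 36 so placed in TPM, against 5.01% of all genes. Ncald and Calu, 2 of the 36, had all 3 CKO values below all 3 CTR values in TPM, against 4.5%. In CPM 2 of the 36 lay above and 1 below, against 4.99% and 4.62% of all genes. The centrin genes Cetn2 and Cetn3, whose products sit at centrioles and basal bodies, averaged 1597 and 742 TPM in the CKO and 1700 and 772 TPM in the CTR. Efcab1, a cilium-associated EF-hand gene, stood at 397 ± 37.4 TPM in the CKO and 312 ± 61.0 TPM in the CTR. The groups overlapped in TPM, and Efcab1 was 1 of the 2 genes that lay above in CPM. Its log2 difference was 0.35 ± 0.15 (SE, edgeR unadjusted p = 0.0513, adjusted p = 0.99999).

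Genes whose level over the 6 libraries ran most like that of S100b were taken by the smallest SD of the log2 ratio of TPM. Compared were 2391 genes whose mean reached 50 TPM and that were detected in every library. S100 genes, mitochondrially encoded genes and genes with model-number symbols were left out of the comparison. The closest to S100b were Ccdc114, a dynein-arm docking gene (SD 0.14), Rab1a, a GTPase of vesicle traffic (0.15), and Ddx56, an RNA helicase gene (0.16), where the median gene had 0.55. Ccdc114 stood at 121, 114 and 81.9 TPM in the CKO and at 72.1, 151 and 110 TPM in the CTR, lowest in CTR 1 and highest in CTR 2 as S100b was. For S100a6 they were Mrpl55, a mitochondrial ribosomal protein gene (SD 0.066), Rchy1, a ubiquitin ligase gene (0.087), and Npm1, which encodes nucleophosmin (0.094), where the median gene had 0.45. Mrpl55 stood at 128, 145 and 154 TPM in the CKO and at 229, 172 and 182 TPM in the CTR, highest in CTR 1 as S100a6 was. This likeness over 6 libraries is a description only.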

How the data were processed

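Gene-level RNA-seq values of 6 libraries, 3 CKO and 3 CTR as named in the sample titles, were analysed. Per the submitters' processing notes, CASAVA 1.8, cutadapt 1.11 and kallisto 0.42.5 were used; the sources used here do not give the build, annotation, strand setting or how transcripts were summed. Per the file headers, the deposited tables hold an estimated count and a TPM value per gene. The deposited estimated counts are not normalized, and were rounded to whole numbers here. TPM as deposited sums to the same total in each library and is scaled for transcript length by the authors, so levels of different genes were compared in TPM, with CPM as an alternative that ignores length.

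Genes were kept by filterByExpr (11574 of 19684 with a count), scaled by TMM and tested over all genes with edgeR 4.0.16 (quasi-likelihood, robust, genotype as the only term, R 4.3.3) and Benjamini-Hochberg adjustment at 0.05. For single genes a two-sided exact permutation test on TPM was added. Positions are from GENCODE M21 on GRCm38, matched by gene identifier without version (99.1% matched). The edgeR step was tested on simulated data, where it left many changed genes uncalled, so a gene that was not called is not shown to be unchanged. Alternatives were DESeq2 1.42.0, edgeR with the DESeq2 scaling, with library totals alone or without a filter, limma-voom and limma (3.58.1) on log2(TPM + 1) and log2(TPM + 0.1), a newer edgeR method, a replicate block, and leaving out 1 library at a time. The members and lists were chosen with earlier results of these data known. Named were all 8 members, other S100 genes with a mean of at least 1 TPM, and from each list the 3 most abundant and the 2 of smallest p, and the 3 genes most like S100b and S100a6. Myh9, Myh10, Myh14, Iqgap1, Src, Pgm1, Ncald and Calu were named after their values were seen.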

Additional observations from a re-analysis of the deposited data

How the results depend on the processing

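The called counts were the same in nearly all settings: 0 of the 8 S100 genes and 0 annexins, receptors and other EF-hand genes were called in any of the 15 other settings, and DESeq2 was the exception elsewhere, calling 198 of all genes and 2 of the binding partners. S100a6, S100a10, S100a11 and S100a16 kept their direction in all 15. S100b turned to 0.051 with limma-voom, 0.035 on log2(TPM + 1), 0.036 on log2(TPM + 0.1) and 0.0038 with the newer edgeR method, and S100a4 to 0.25, 0.24 and 0.25 with the first 3 of these; the cause was not tested. The first 3 also turned Anxa7 to 0.29, 0.070 and 0.20 and the annexin median to 0.019, 0.012 and 0.012. With the replicate number as a block S100b stood at 0.032, S100a4 at 0.25, Anxa7 at 0.067 and the annexin median at 0.0072, and 0 genes were called; same-numbered libraries deviated with correlations of 0.0080, 0.031 and 0.015 across genes, so the numbers were not taken as pairs.

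Leaving out 1 library gave ranges from -0.22 to 0.32 for S100b, -0.41 to 0.20 for S100a1, -0.49 to 0.84 for S100a4 and -0.14 to 0.46 for S100a13. The sign also turned for Anxa2 (-0.066 to 0.013), Anxa1 (-0.61 to 0.26), Anxa7 (-1.05 to 0.40), Bsg (-0.015 to 0.22), Fgfr1 (-0.045 to 0.62), Aldoc (-0.50 to 0.062), Cacybp (-0.0077 to 0.26), Cetn2 (-0.24 to 0.051), Cetn3 (-0.21 to 0.057), the annexin median (-0.099 to 0.16) and the median of other EF-hand genes (-0.075 to 0.0067). In CPM, without regard to length, only 1 gene, S100a1, kept its place in the order of levels. Counts of 86 to 437 per library limit what can be said of S100a4, and 117 to 324 of S100a13.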
